A study of Mus musculus with 3 samples.

Results

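The Hox genes of the mouse encode homeodomain transcription factors and lie in 4 clusters, Hoxa, Hoxb, Hoxc and Hoxd. The genes described here were a list of 38 Hox genes, found on the array by the accession of each probe. All 38 were matched, to 41 probes among the 27235 probes that had a gene name, which stood for 20660 genes. The cells were J1, a mouse embryonic stem cell (mESC) line of the strain 129S4/SvJae. They were grown on gelatin with serum replacement and, according to the methods of the study, without feeder cells. They were treated with 1 µM PD0325901 (PD), an inhibitor of the kinase MEK, for 24 h, in medium that held leukemia inhibitory factor (LIF) at 1000 U/mL. The study followed the response of mESCs to this inhibitor, and the 3 samples analysed here were replicates 1 to 3 of this single group, with 1 single-colour (Cy3) array each. Untreated cells were not analysed here, so nothing below is an effect of PD, no test between conditions was possible and no p-value is given. According to the methods of the study, each replicate was prepared in an experiment of its own, and each SD measures the spread between these samples.

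Within a cluster the Hox genes are numbered by their order along the chromosome, and genes with the same number in different clusters are paralogues that arose from a common ancestor. In the embryo they are switched on in that order, in time and from head to tail, and give the segments of the body their identity. In embryonic stem cells the clusters are known as a textbook case of silencing by Polycomb, with bivalent chromatin at their promoters, and retinoic acid and Cdx proteins are known to switch them on during differentiation. Hox proteins bind DNA together with partners of the Pbx, Meis and Pknox families.

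The windows of 250 bases upstream of 6 Hox genes are printed first, chosen as pairs that differed in detection. Hoxb1 and Hoxa11 were the genes whose probe was printed 10 times on each array, and the former was detected and the latter was not. Hoxb4 and Hoxb8 lie in the same cluster, and Hoxd13 and Hoxd12 are neighbours. In each pair the detected gene is given first. The sequences are from RefSeq on the build GRCm38.p6, 5′ to 3′ on the strand of the gene, and end at the base before its annotated start. Capitals mark CpG dinucleotides, the site of DNA methylation and a feature of the CpG islands that Polycomb occupies.
Hoxb1: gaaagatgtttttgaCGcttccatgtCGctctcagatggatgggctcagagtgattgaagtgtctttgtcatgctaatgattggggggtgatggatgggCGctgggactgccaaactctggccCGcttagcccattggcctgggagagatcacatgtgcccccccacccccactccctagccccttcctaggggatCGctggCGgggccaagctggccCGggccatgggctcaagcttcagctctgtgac
Hoxa11: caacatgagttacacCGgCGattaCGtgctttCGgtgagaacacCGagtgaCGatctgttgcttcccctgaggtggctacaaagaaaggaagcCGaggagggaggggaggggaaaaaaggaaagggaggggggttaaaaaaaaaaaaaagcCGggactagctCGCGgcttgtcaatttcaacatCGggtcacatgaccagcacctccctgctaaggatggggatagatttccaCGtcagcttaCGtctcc
Hoxb4: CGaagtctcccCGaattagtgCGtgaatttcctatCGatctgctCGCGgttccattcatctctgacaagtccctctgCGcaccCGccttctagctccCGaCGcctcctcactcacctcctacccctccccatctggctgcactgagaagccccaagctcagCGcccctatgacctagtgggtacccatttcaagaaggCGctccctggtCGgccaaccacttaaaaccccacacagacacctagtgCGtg
Hoxb8: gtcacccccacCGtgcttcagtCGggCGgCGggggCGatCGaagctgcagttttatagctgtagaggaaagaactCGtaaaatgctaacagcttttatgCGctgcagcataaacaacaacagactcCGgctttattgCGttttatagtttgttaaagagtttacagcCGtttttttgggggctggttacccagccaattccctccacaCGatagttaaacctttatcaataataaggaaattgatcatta
Hoxd13: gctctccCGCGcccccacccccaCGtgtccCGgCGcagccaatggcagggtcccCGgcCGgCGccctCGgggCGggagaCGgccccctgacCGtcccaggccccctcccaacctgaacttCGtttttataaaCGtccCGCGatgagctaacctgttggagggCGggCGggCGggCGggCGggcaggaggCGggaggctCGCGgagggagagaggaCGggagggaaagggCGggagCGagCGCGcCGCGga
Hoxd12: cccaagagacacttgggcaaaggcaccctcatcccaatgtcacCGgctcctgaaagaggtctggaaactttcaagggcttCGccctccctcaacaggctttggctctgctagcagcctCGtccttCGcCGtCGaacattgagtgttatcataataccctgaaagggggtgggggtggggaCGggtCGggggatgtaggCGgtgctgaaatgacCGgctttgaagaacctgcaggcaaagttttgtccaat

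The window of Hoxb1 is chr11:96365508-96365757 (+ strand) and held 7 CpG, and that of Hoxa11 is chr6:52245811-52246060 (- strand) and held 13. The window of Hoxb4 is chr11:96318017-96318266 (+ strand) with 14 CpG, and that of Hoxb8 is chr11:96281655-96281904 (+ strand) with 12. Against a median of 6 CpG over all 32851 windows, these counts were all higher. Of all windows 53.7% held fewer CpG than that of Hoxb1, 68.5% than Hoxa11, 70.6% than Hoxb4 and 66.5% than Hoxb8. The window of Hoxd13, chr2:74667975-74668224 (+ strand), held 31 CpG at a GC content of 74.4%, and 94.8% of all windows held fewer CpG. Its neighbour Hoxd12, chr2:74674763-74675012 (+ strand), held 10 CpG at a GC content of 55.6%. A detected gene thus had fewer CpG than its undetected partner in the first pair and more in the others. Of the 38 genes 22 had a window, which was too few for any statement on the CpG or GC content of the set.

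Short motifs were searched on both strands of these windows. The TATA box (TATAAA) was present in 12.4% of all windows, the joint site of Pbx and Hox proteins (TGATNNAT) in 7.68% and the Cdx site (TTTATG) in 10.8%. The window of Hoxb1 held TGATGGAT, a match to the joint Pbx and Hox site, 162 bases before the start. Hoxb8 held matches to all of these motifs, its Pbx and Hox match (TGATCAAT on the opposite strand) lying 11 bases before the start. Hoxd13 held TATAAA 124 bases before the start, which overlaps a match on the opposite strand. The windows of Hoxa11, Hoxb4 and Hoxd12 held no match. These are matches of letters, which may overlap each other and do not show that a factor binds.

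A gene was taken as detected on an array when the scanner software flagged its probe well above background, and as detected when this held on all 3 arrays. By this rule 16 of the 38 Hox genes (42.1%) were detected, beside 72.6% of all 20660 named genes. Of the 41 Hox probes 16 were detected, beside 72.2% of all named probes. Another 4 Hox genes passed on 1 or 2 arrays, and 18 passed on none. In bulk RNA, fewer cells that express a gene and less RNA per cell cannot be told apart, so a gene that was not detected may still be transcribed in a few cells. The dimmest spots that carried this flag had signals of 10.1, 11.4 and 10.3 on replicates 1 to 3, and the 75th percentile of the signal over probes was 551, 511 and 527. These lowest flagged signals are called the limit of detection below. The flag is not a fixed cut on the signal, and some brighter spots lacked it, such as that of Hoxd8 at 13.7 on replicate 2. The flag was also carried by 5, 16 and 4 of the 308 negative control spots on replicates 1 to 3. No spot was saturated. All 3 arrays were on 1 slide and in 1 scan. On replicate 2 the software marked 187 spots as non-uniform, against 25 and 8 on replicates 1 and 3. In 6 blocks of the array there were 10 or more of them each, and these blocks together held 11 of the 41 Hox probes. The share of all probes in these blocks is not given, so this count was not read as particular to Hox probes.

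**Figure D1:**
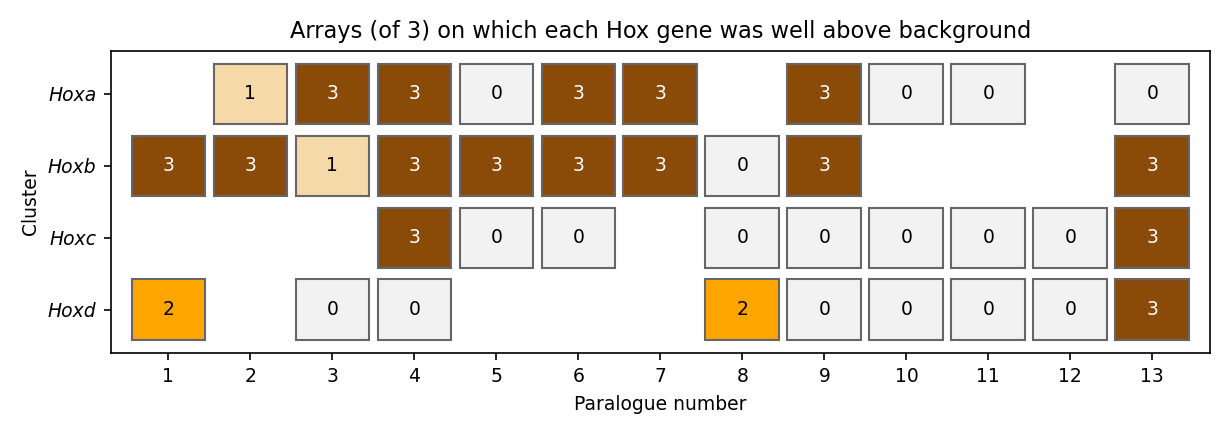
Number of arrays (of 3) on which each Hox gene was well above background, by cluster (vertical) and paralogue number (horizontal), with blank positions where the list holds no gene. The Hoxb cluster had 8 of 10 genes at 3 arrays, and paralogue groups 10 to 12 had none.

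By cluster, Hoxb had 8 of 10 genes detected (80%), all but Hoxb3 and Hoxb8, which was near the 72.6% of all named genes. The other clusters lay below that share. Hoxa had 5 of 10, namely Hoxa3, Hoxa4, Hoxa6, Hoxa7 and Hoxa9. Hoxc had 2 of 9, Hoxc4 and Hoxc13, which lie at opposite ends of the cluster. Hoxd had 1 of 9, Hoxd13, also the last gene of its cluster. Along the numbering, 3 of 7 anterior genes (paralogue groups 1 to 3), 8 of 15 central genes (groups 4 to 8) and 5 of 16 posterior genes (groups 9 to 13) were detected. The 5 posterior genes were Hoxa9, Hoxb9 and 3 of the 4 genes of group 13. Between them, 0 of the 8 genes of groups 10 to 12 were well above background on any array. Genes within a cluster are neighbours and each was read by its own probe, so these counts describe the arrays and were not tested.

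A looser flag of the software, which asks only that a spot exceed its background significantly, passed 27 of the 38 Hox genes on all 3 arrays, beside 81.0% of all named genes. Under it Hoxc had 6 of 9 genes and Hoxd 5 of 9, while Hoxa had 7 and Hoxb 9 of 10. The counts of Hoxc and Hoxd thus depended on the flag. Under either flag, though, their shares were the lowest of the clusters and below that of all named genes. Hoxa10, Hoxa11, Hoxc9, Hoxc11, Hoxd3 and Hoxd12 passed the looser flag on no array.

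**Figure D2:**
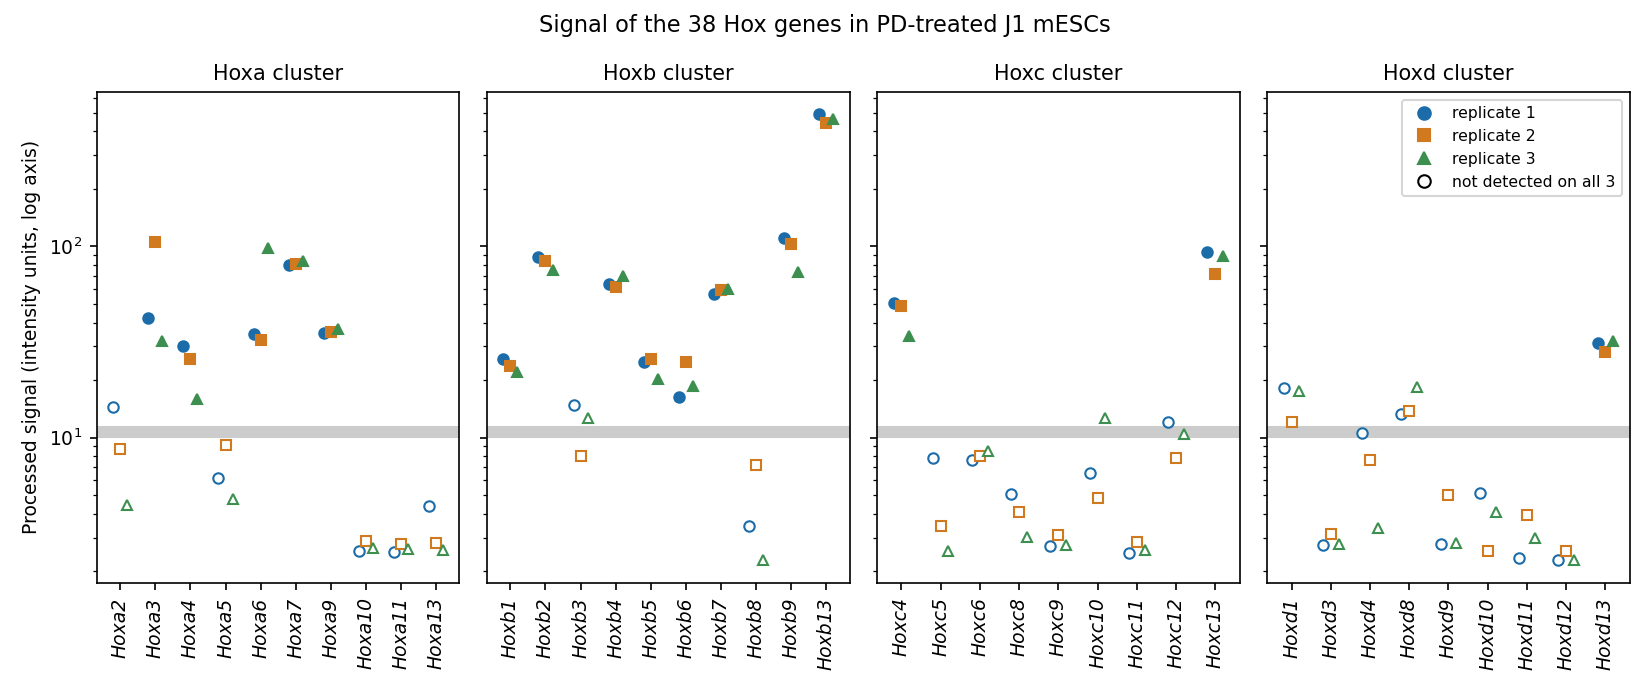
Processed signal (intensity units, log axis) of the 38 Hox genes on replicates 1 to 3, by cluster, with open symbols for genes not detected on all 3 arrays and a grey band over the lowest signals well above background (10.1 to 11.4). Hoxb13 lies between 443 and 492, and the replicates of Hoxa3 and Hoxa6 lie apart.

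Anterior genes pattern the hindbrain and the pharyngeal arches. Hoxb1, which specifies a segment of the hindbrain and is an early target of retinoic acid, had signals of 25.6, 23.6 and 22.0 on replicates 1 to 3 and a level of -4.50 ± 0.08 (SD, n = 3). Level here is the log2 of the signal relative to the 75th percentile over the probes of the same array. Hoxb2, a target of Hoxb1 in the hindbrain, had signals of 88.6, 84.2 and 75.3 (level -2.68 ± 0.11). For both genes the replicates lay close together, replicate 3 being lowest. Hoxa3, needed for the thymus and parathyroid, had signals of 42.1, 105.7 and 32.2 (level -3.34 ± 0.94). Replicate 2 stood apart here, and the single spot of Hoxa3 lay in one of the blocks with many non-uniform spots on that array. The spot itself carried no outlier flag. Hoxb1 (some of its spots) and Hoxb2, and the posterior genes Hoxa9 and Hoxd13, lay in such blocks as well, and their SDs were 0.07 to 0.11. The part of the non-uniform spots in the value of Hoxa3 was not tested.

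Hoxa2, which sets the identity of a branchial arch, was detected on 1 array, with signals of 14.5, 8.69 and 4.42. Hoxb3, another hindbrain gene, was also detected on 1 array, with 14.8, 7.99 and 12.7 for the brighter of its 2 probes. Hoxd1 was detected on 2 arrays, with 18.2, 12.1 and 17.6. In these genes the signals straddled or lay close to the limit of detection. Hoxd3, which patterns the first vertebrae, was detected on none, with 2.74, 3.13 and 2.78.

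The central genes pattern the neck and thorax, and several act in blood formation. Among those of Hoxb, Hoxb4, known for expanding blood stem cells, had signals of 63.8, 61.3 and 70.1 (level -3.03 ± 0.10). Hoxb7, active in the ureteric bud of the kidney, had 56.3, 59.5 and 59.8 (-3.18 ± 0.10). Both varied little over the arrays. Hoxb5, which acts in the neural crest of the gut, had 24.9, 25.9 and 20.3 (-4.49 ± 0.20). Hoxb6 had 16.4, 24.9 and 18.7 (-4.75 ± 0.36), with replicate 2 highest. In both genes all replicates still lay above the limit of detection. Hoxb8, used to immortalise myeloid progenitors, lay below this limit on every array, with 3.43, 7.17 and 2.28.

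In Hoxa, Hoxa7, which patterns the thoracic vertebrae, had signals of 80.3, 80.5 and 84.0 (level -2.70 ± 0.07). Hoxa4, active in the neck region, had 30.2, 25.7 and 15.9 (-4.52 ± 0.47), so that replicate 3 was lowest. Hoxa6 had 34.9, 32.4 and 98.7 (-3.46 ± 0.90). Here replicate 3 was the high one, and its spot lay in none of the marked blocks. Hoxa5, needed for the lung, was detected on no array, with 6.18, 9.18 and 4.78. In Hoxc, Hoxc4 had 50.9, 48.5 and 33.8 (-3.60 ± 0.31), replicate 3 again being lowest. The other central genes of Hoxc, which include the motor neuron gene Hoxc8, and those of Hoxd were not detected on all arrays. Hoxd8 passed on 2 arrays, with signals of 13.2, 13.7 and 18.5, all near the limit. Hoxc5, Hoxc6, Hoxc8 and Hoxd4 passed on none, with signals from 2.56 in Hoxc5 on replicate 3 to 10.5 in Hoxd4 on replicate 1.

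Posterior genes pattern the limbs, the lower spine and the urogenital tract. Hoxa9, known for its part in blood stem cells and leukaemia, had signals of 35.1, 35.8 and 36.8 (level -3.88 ± 0.08) on its brighter probe. Its other probe gave 12.5, 10.3 and 11.2 and was detected on 1 array, so the call of Hoxa9 rests on 1 of its 2 probes. Hoxb9, which patterns the ribs, had 110.8, 103.1 and 73.6 (-2.49 ± 0.30), with replicate 3 lowest.

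In group 13, the last to be switched on in the embryo, all genes but Hoxa13 were detected. Hoxb13, known from the prostate and the tail, had signals of 491.5, 442.8 and 465.5 and a level of -0.18 ± 0.02, the smallest SD of the detected Hox genes. Hoxc13, which is needed for hair and nails, had 94.0, 72.2 and 89.4 (-2.64 ± 0.16). Hoxd13, a gene of the digits and genital tubercle, had 31.4, 28.1 and 32.0 (-4.12 ± 0.07). The replicates of Hoxb13, Hoxc13 and Hoxd13 all lay above the limit of detection by more than their spread. Hoxa13, which acts with Hoxd13 in the digits, had 4.40, 2.80 and 2.58 on the brighter of its 2 probes, and neither probe was detected on any array. Each of these genes other than Hoxa13 was read by 1 probe of 1 spot, so no second probe stood beside the call.

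Groups 10 to 12 act in the uterus and limbs. Hoxc12 had signals of 12.1, 7.82 and 10.4 and Hoxc10 of 6.52, 4.80 and 12.6, and neither was flagged well above background on any array. The remaining genes, Hoxa10, Hoxa11, Hoxc11, Hoxd10, Hoxd11 and Hoxd12, lay between 2.29 and 5.13 on all arrays. Of group 9, Hoxc9 and Hoxd9 were not detected, with signals of 2.72 to 5.01.

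The probes of Hoxa11 and Hoxb1 were printed 10 times on each array, which gives an error within the array. For Hoxa11, needed for the forearm and uterus, 0 of 10, 0 of 10 and 0 of 8 spots without outlier flags were well above background, and single spots lay between 2.23 and 3.42. The 308 negative control spots had 95th percentiles of 2.74, 12.7 and 2.82, and the mean signals of Hoxa11 (2.53, 2.78 and 2.61) lay below them, with 1 single spot above on replicate 1 and 1 on replicate 3. For Hoxb1, 10 of 10, 10 of 10 and 8 of 8 spots were well above background, from 16.6 to 30.6. The standard error of the mean of its spots was 0.075, 0.085 and 0.053 log2 units, of about the size of its SD of 0.08 between arrays. The 2 other spots of each probe on replicate 3 carried outlier flags and were left out. Hoxa11os, an RNA transcribed antisense to Hoxa11, was detected on all arrays, with 57.6, 53.4 and 61.0. The files do not give the strand or position of the probes, beyond their accession.

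**Figure D3:**
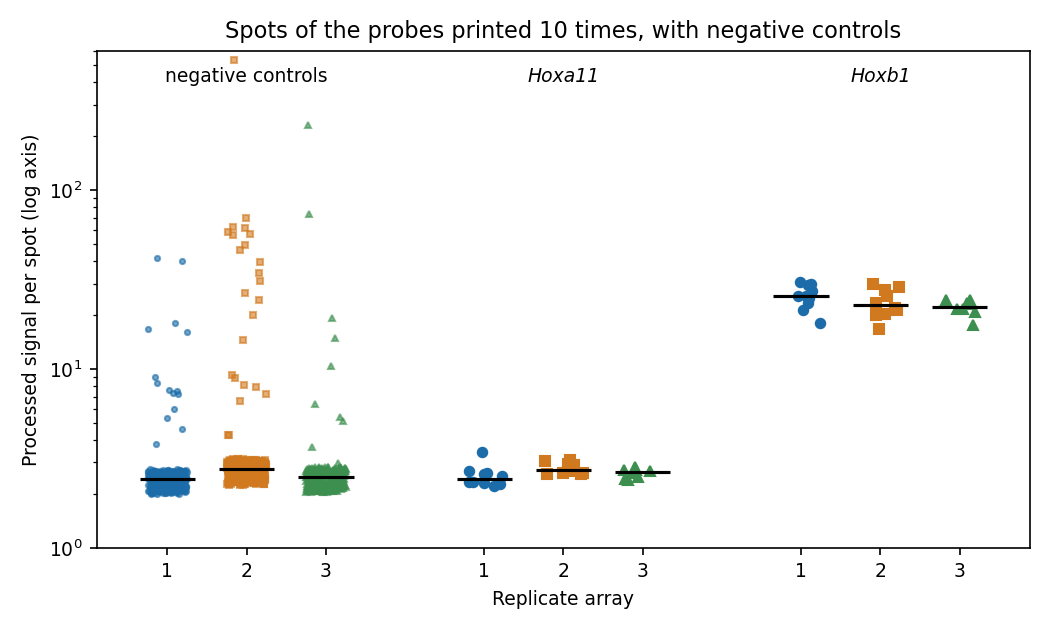
Processed signal of single spots (log axis) on replicates 1 to 3 for the 308 negative control spots, the Hoxa11 probe and the Hoxb1 probe, with black lines at the medians. The spots of Hoxa11 lie from 2.23 to 3.42, with 1 on replicate 1 and 1 on replicate 3 above the 95th percentile of the negative controls, and those of Hoxb1 from 16.6 to 30.6.

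Over the 16 detected Hox genes the median level was -3.40, from -4.75 to -0.18, and all 16 lay below the 75th percentile of the array. Over all 14999 detected named genes the median level was 0.61, and 42.9% lay below that percentile. The level of a gene also depends on its probe's sequence, and differences between Hox genes were not read as differences in RNA. The median level of the 16 genes on replicates 1 to 3 was -3.57, -3.25 and -3.49.

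The median SD of the detected Hox genes was 0.13 log2 units, from 0.02 to 0.94, beside 0.074 over all detected named genes. Dim probes vary more, so the SDs were also read against all detected genes in bands of 1 log2 unit of level. The median SD was 0.21 in the band from -5 to -4, 0.15 from -4 to -3 and 0.11 from -3 to -2, and 8 of the 16 Hox genes lay above the median of their band. A range above 1 log2 unit over the arrays was found in 2 of the 16, Hoxa3 (1.76) and Hoxa6 (1.56), beside 0.987% of all detected named genes and 1.84% of the 5761 whose levels lay within the span of the detected Hox genes. Different replicates were high in these genes, replicate 2 in Hoxa3 and replicate 3 in Hoxa6. The SDs of Hoxa3, Hoxa6 and Hoxb9 were above the 95th percentile of genes of like level.

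**Figure D4:**
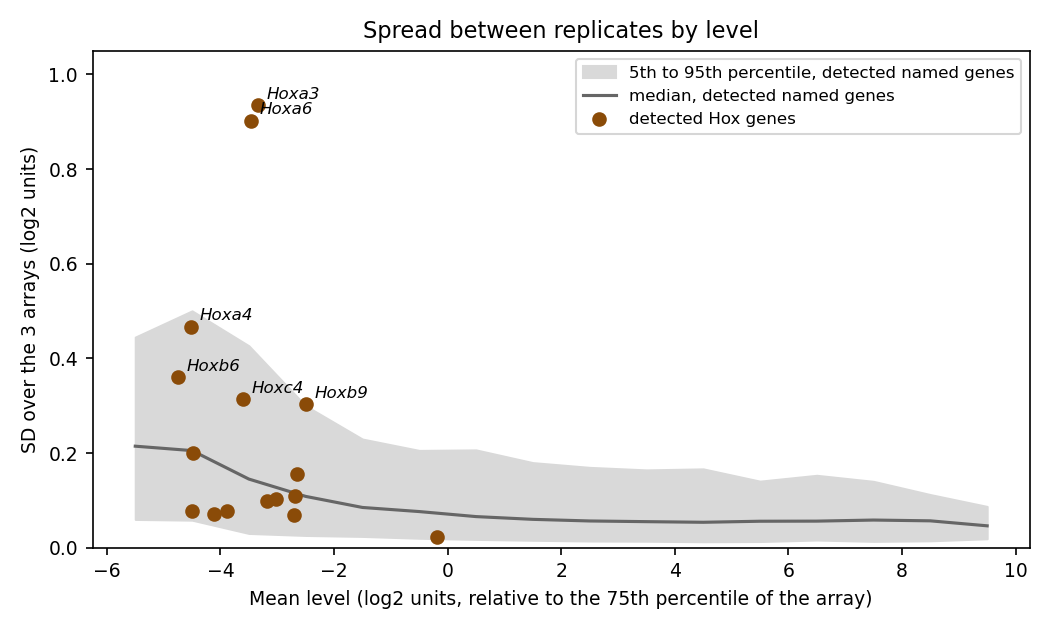
SD over the 3 arrays against mean level (both log2 units) of the 16 detected Hox genes, with the median (line) and the 5th to 95th percentile (grey) of all detected named genes. Hoxa3 (0.94) and Hoxa6 (0.90) lie far above the grey area, and the others lie within it or, for Hoxb9, at its edge.

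The partners of Hox proteins were all detected, 9 of 9 beside 72.6% of all named genes. Pbx2 had signals of 2965, 2705 and 2909, Pbx3 of 2236, 2368 and 2052, and Pbx4 of 85.2, 86.8 and 78.4. These were read far above the limit of detection on every array. The Meis genes, whose products join Pbx and Hox on DNA, had mean signals of 218 ± 18.5 (Meis1), 1512 ± 71.4 (Meis2) and 383 ± 16.2 (Meis3) (SD, n = 3). The related Pknox1 and Pknox2 had 784 ± 32.3 and 230 ± 12.5.

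Of the known regulators, the Cdx genes encode homeodomain factors that activate central Hox genes. Cdx1 had signals of 485, 510 and 492, whereas Cdx2 (4.90, 5.98 and 5.26) and Cdx4 (2.65, 3.03 and 2.79) were not detected. So 1 of 3 Cdx genes was detected, a list too short to read against the 72.6% of all named genes. In the retinoic acid pathway 15 of 17 genes (88.2%) were detected, beside 72.6% of all named genes, among them the receptors Rara, Rarb and Rarg, the binding proteins Crabp1 and Crabp2 and the synthetic enzyme Aldh1a2. The exceptions were Cyp26c1, which degrades retinoic acid (2.74, 3.15 and 2.78), and Aldh1a3, which makes it (4.85, 2.27 and 2.20).

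Of the Polycomb genes 29 of 30 (96.7%) were detected, beside 72.6% of all named genes. The exception was Eed, a core subunit of the complex that methylates histone H3, whose only spot on replicate 2 carried an outlier flag and so gave no value. Its signals on replicates 1 and 3 were 40862 and 34764, and without replicate 2 all 30 genes were detected. The trithorax group, which opposes Polycomb at the Hox clusters, had 8 of 8 genes detected, beside the same share. No probe was matched to Kmt2a, which encodes another member of this group.

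Genes next to the clusters were detected in 13 of 15 cases (86.7%), beside 72.6% of all named genes. The exceptions were the Evx genes, homeobox genes at the posterior flank of Hoxa and Hoxd. Evx1 had signals of 2.55, 2.88 and 2.65, and Evx2 had 2.58, 18.2 and 2.58 and was detected on replicate 2 alone. The spot of Evx2 lay in a marked block but carried no outlier flag itself. Among the 13 were Skap2 and Hibadh beside Hoxa, Skap1 and Snx11 beside Hoxb, Smug1 beside Hoxc, and Mtx2 and Lnpk beside Hoxd. Of the noncoding RNAs of the clusters, Hoxa11os was detected, Hoxd3os1 was not (2.41, 2.78 and 2.60), and the other 11 listed were not matched to a probe.

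**Figure D5:**
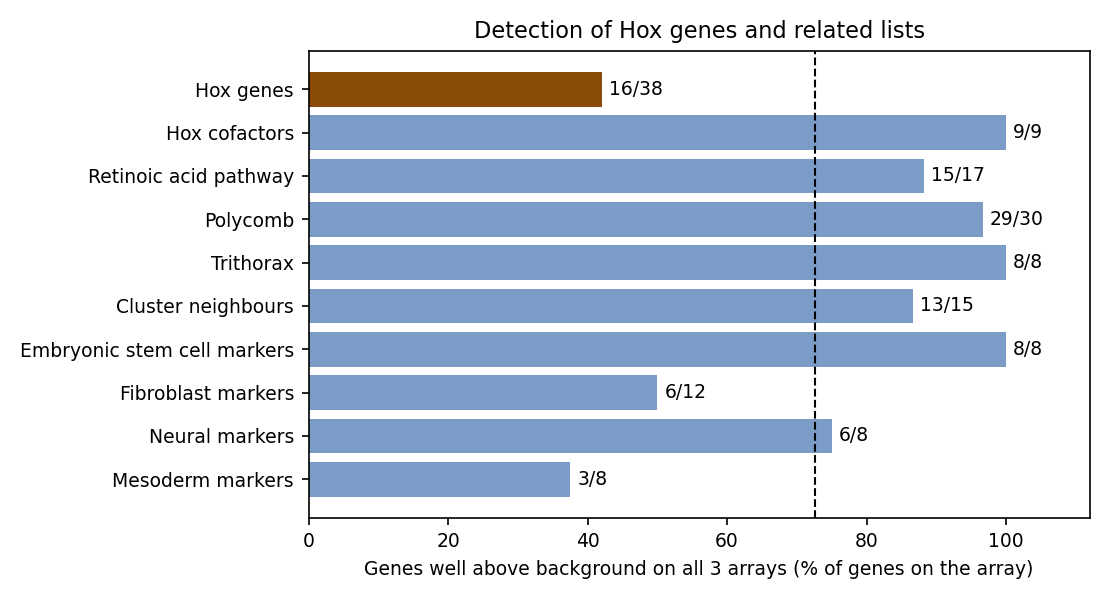
Percentage of the genes on the array that were well above background on all 3 arrays, for the Hox genes and related lists, with detected over measured genes beside each bar and a dashed line at 72.6%, the share of all named genes. Of the lists drawn, Hox genes (16/38), fibroblast markers (6/12) and mesoderm markers (3/8) lie below the line, and the short lists of Cdx genes (1 of 3) and noncoding RNAs (1 of 2), both also below it, are not drawn.

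The label of the cells was checked with marker genes. All 8 markers of embryonic stem cells were detected, among them Pou5f1 (11265, 16872 and 10239), Nanog (695, 690 and 689) and Zfp42 (27071, 25132 and 26078). Markers of other cells in which Hox genes are active were read beside them, against the 72.6% of all named genes that were detected. Of 12 fibroblast markers 6 (50%) were detected, namely Thy1 (612, 640 and 619), Col1a2 (489, 345 and 464), Col1a1 (232, 224 and 219), Dcn, Pdgfrb and Twist1. The summed signal of the 12 was 1445 to 1498 over the arrays, the largest part of it from Thy1. Lum and Postn, which fibroblasts express, and Col5a2 and Prrx1 were not detected on any array, and Col3a1 and Twist2 were detected on 1 array each. Of 8 neural markers 6 (75%) were detected, about the share of all named genes, with a sum of 4538 to 4655, most of it from Tubb3. Neurog2 and Dcx were not detected. Of 8 mesoderm markers Eomes, Tbx6 and Meox1 (37.5%) were detected, with a sum of 696 to 792, most of it from Eomes. T was detected on 2 arrays and Mesp1 and Msgn1 on 1 each, whereas Mixl1 and Foxf1 were detected on none. The part of other cell types in the Hox signals was not tested.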

How the data were processed

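RNA of 3 PD-treated J1 mESC samples was hybridised in 1 colour to Agilent mouse arrays. Per the file headers, the deposited intensity values are processed signals of Agilent Feature Extraction 10.7.3.1 (10.7 in the submitters' processing notes), with background subtracted and trends removed within each array and no scaling between arrays. The authors also deposited a table of log2 values per probe, whose normalization is not given in the sources used here. It served as an alternative. The grid of the array refers to mm9, and no coordinates of probes are given.

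Probes were named by accession through RefSeq genes of GRCm38.p6, which matched 27235 of the 55681 probes other than controls. Spots with outlier flags were left out, the log2 signals of the spots of a probe were averaged, and the 75th percentile of the array over these 55681 probes was subtracted. Detection on an array asked for the flag well above background on 50% or more of the remaining spots of a probe. The probe with the highest mean level stood for a gene. Python 3.11.15, pandas 2.3.3, R 4.3.3 and limma 3.58.1 (normexp) were used, and the scaling was tested on simulated data. The number of arrays limits the precision.

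With 1 group, no test was made. Alternatives were the looser flag, the negative controls, other rules for probes of a gene, other scalings, quantile normalization, normexp with an offset of 50 (on median signals, since no mean signals were given), the deposited table, no filter, and leaving out each replicate. All Hox genes are named, with the smaller side of each other list and with values for partners, Cdx, Evx and noncoding genes, and examples of other list members were chosen after their values were seen. Some items are not reported here. The members and lists were chosen with earlier results of these data known.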

Additional observations from a re-analysis of the deposited data

How the results depend on the processing

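Of 95 alternative values for 14 results, 79 stayed within set limits (1.5 times for counts, the SD of the array medians for the level). The counts of the partner, retinoic acid, Polycomb, trithorax and neighbour lists could not rise by 1.5 times, since too few of their genes were left undetected. Leaving out a replicate could only keep or raise a count of detected genes. The number within the limits thus follows in part from these rules. The looser flag raised the detected Hox genes from 16 to 27, those of Hoxc from 2 to 6, those of Hoxd from 1 to 5 and the Hox probes from 16 to 29. Of all named genes 81.0% passed it. Leaving out each replicate gave 16 to 18 Hox genes, beside 72.8 to 73.8% of all named genes, and 1 to 3 Hoxd genes. The 3 came without replicate 2, when Hoxd1 and Hoxd8 were added. Above the 95th percentile of the negative controls 17 Hox genes passed, beside 74.2% of all named genes. This count rests on replicate 2, where the percentile was 12.7, against 2.74 and 2.82 on replicates 1 and 3. Hoxa2, Hoxa5, Hoxb3, Hoxc6, Hoxc8, Hoxc10, Hoxc12, Hoxd1, Hoxd4 and Hoxd10 exceeded it on replicates 1 and 3 but not on replicate 2. If every probe of a gene had to pass, 15 Hox genes did, beside 67.9% of all named genes, since Hoxa9 was lost.

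The median level of -3.40 became 0.34 relative to the median of each array and -5.32 relative to the 75th percentile over detected probes, since the point of reference changes. It was -2.36 after normexp, for which the cause was not tested, -5.63 with all 38 genes, and -3.46 to -3.18 on leaving out each replicate. The median SD of 0.13 rose to 0.28 with all 38 genes and was 0.057 to 0.17 on leaving out each replicate, the lowest without replicate 3. The 2 genes with a range above 1 log2 unit became 0 after normexp, and the cause of this was not tested either. Their number was 7 with all 38 genes, and 1 to 2 on leaving out each replicate, with 1 without replicate 2 and 1 without replicate 3. No paired analysis was possible because there was only 1 group. Depth on arrays is signal over background, and 39 of the 41 Hox probes had 1 spot each.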

Other observations

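Evx1os, an RNA antisense to the Hoxa neighbour Evx1, had signals of 27.0, 2.71 and 2.52 on replicates 1 to 3 and was detected on replicate 1 alone.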
